A study of Mus musculus with 8 samples.

Results

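The Dlk1-Meg3 domain is an imprinted region of mouse chromosome 12, in which protein-coding genes are expressed from the paternal chromosome and long noncoding RNAs from the maternal one. It was followed here through Dlk1, Meg3 and Rian, the 3 genes of the domain among the 5457 genes of the deposited table, taken by name from that table. The cells carried Pax7-CreERT2/+;R26-tdTO+ or Tw2-CreERT2/+;R26-tdTO+ on a C57BL/6 background, so that tamoxifen switched on the red fluorescent protein tdTomato in cells using Pax7 or Twist2 (Tw2). All mice were adult and received 3 tamoxifen treatments 10 days before harvest, and fluorescent cells were sorted from digested hind limb muscle and plated on matrigel. The labels give Ham's F10 with 20% fetal bovine serum for growth, and, for differentiation, high-glucose DMEM holding bFGF and 2% horse serum. The 4 groups of 2 libraries are named as in the table: Pax7_GM and Pax7_48 for the Pax7 lineage, Tw2_GM and Tw2_48 for the Tw2 lineage. GM is taken as growth medium, and 48 is a number in the titles, followed by hr in the Tw2 titles alone; which medium the 48 cultures were in is not stated. The labels describe the samples both as cultured cells and as freshly sorted cells at RNA extraction, so the time between sort and extraction is uncertain, and culture is used here as the group names have it.

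In textbook accounts the domain is controlled by a differentially methylated region upstream of Meg3. It is methylated on the paternal chromosome, where Dlk1, Rtl1 and Dio3 are expressed, and unmethylated on the maternal chromosome, where Meg3, Rian and Mirg are transcribed in 1 direction and carry clusters of microRNAs and small nucleolar RNAs. Dlk1 encodes a transmembrane protein with EGF-like repeats, related to the ligands of Notch, that is known from preadipocytes and from developing and regenerating muscle. Meg3 (also Gtl2) is a long noncoding RNA reported to bind Polycomb repressive complex 2, and Rian (also Meg8) is the host of box C/D small nucleolar RNAs. The reads carry no parental origin in this table, so paternal and maternal are used as the textbook names of the transcripts and not as measurements.

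In the GENCODE M21 annotation of GRCm38, Dlk1 (ENSMUSG00000040856.17) is a protein-coding gene on the plus strand at chr12:109452823-109463336. Meg3 (ENSMUSG00000021268.17), a lincRNA on the same strand, lies at chr12:109541001-109571726 and begins 77.7 kb after the end of Dlk1. Rian (ENSMUSG00000097451.10), annotated as a processed transcript on the same strand, lies at chr12:109603940-109661716 and begins 32.2 kb after the end of Meg3. Of the other genes of the domain, Rtl1, Mirg, Dio3 and Begain were not analysed here. The antisense gene Gm26906 overlaps Meg3 over 3096 bp, and the RefSeq model of Rtl1, on the minus strand, overlaps Meg3 over 6830 bp and Rian over 474 bp. Strand handling in library preparation and counting is not stated, so reads of Meg3 or Rian and of these antisense genes cannot be told apart there.

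Because Meg3 and Rian moved together in the results below, the 250 bases before their annotated starts are shown, from RefSeq on GRCm38.p6, plus strand. Capitals mark matches to the motifs searched.
Meg3, chr12:109540746-109540995: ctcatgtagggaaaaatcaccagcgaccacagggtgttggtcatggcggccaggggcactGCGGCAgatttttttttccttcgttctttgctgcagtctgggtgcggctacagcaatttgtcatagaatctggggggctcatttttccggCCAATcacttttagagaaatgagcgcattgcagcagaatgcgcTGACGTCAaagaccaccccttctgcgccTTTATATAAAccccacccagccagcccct
Rian, chr12:109603695-109603944: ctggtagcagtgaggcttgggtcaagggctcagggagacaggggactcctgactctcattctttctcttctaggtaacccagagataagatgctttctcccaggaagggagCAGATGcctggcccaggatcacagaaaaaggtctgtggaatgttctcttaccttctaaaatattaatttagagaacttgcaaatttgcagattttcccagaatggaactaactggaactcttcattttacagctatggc
On both strands, 7 motifs were searched: the cAMP response element TGACGTCA, the TATA box TATAAA, the CCAAT box, the Zfp57 motif TGCCGC, the GC box GGGCGG, the E-box CANNTG and, by name, the Mef2 motif. The Meg3 window held the cAMP response element at bases -57 to -50 from the start, the TATA box at -25 to -20 and, overlapping it on the other strand, at -29 to -24, the CCAAT box at -100 to -96 and the Zfp57 motif, on the minus strand, at -190 to -185. Of 32851 windows of the same length, 1.55% held this cAMP response element, 12.4% the TATA box, 33.8% the CCAAT box and 8.68% the Zfp57 motif. The Rian window and the window of a second RefSeq start of Meg3 held an E-box and no other match, and 66.2% of windows hold one. The window before Dlk1 lies inside a longer RefSeq model of that gene and is not printed; none of the 7 motifs was found in it. It has 8 CpG dinucleotides against 10 before the first Meg3 start, 0 before Rian and a median of 6 over all windows. The motifs were chosen with these sequences in view, and a match describes letters, not a site in use.

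The deposited CPM (reads scaled to library size) are means of the 2 libraries of a group. Each mean was taken apart into its 2 libraries, called deeper and shallower, which gave whole reads for 5452 genes including all 3 described here. Implied library sizes were 5.18 to 13.7 M reads, and 3 reads, the limit that a count of 0 allows, come to 0.218 to 0.579 CPM. The libraries of Pax7_GM were less alike than those of the other groups (Pearson r of log2 values across genes 0.962 against 0.994 to 0.996). Every listed gene differs by at least 1 log2 unit from Tw2_GM in at least 1 of 3 deposited comparisons, and every gene taken apart reaches 10 CPM in at least 4 of the 8 libraries. Meg3 and Rian reached 10 CPM in the 4 Pax7 libraries only, and Dlk1 in the 4 GM libraries only, so a difference between groups was a condition of their being in the table. The label of the sort was set against markers. The 6 of 10 satellite cell markers in the table summed to 2780 and 3320 CPM in Pax7_GM and to 2350 and 2380 CPM in Tw2_GM. Their sums in the 48 cultures were 7880 and 8440 CPM for Pax7 and 5470 and 5530 CPM for Tw2, with no member at 0. Des, Itga7 and Cdh15, which encode desmin, an integrin and M-cadherin, made up most of these sums and rose at 48 in both lineages. Pax7, Vcam1 and Sdc4 fell at 48 in both. Pax7 itself, the gene of the satellite cell sort, was at 117 and 112 CPM in Pax7_GM and 113 and 109 CPM in Tw2_GM (-0.05 ± 0.12, limma adjusted p = 0.738). With the deposited scaling its level thus did not set the lineages apart in growth medium. Vcam1 also passed no threshold between lineages there (0.13 ± 0.18, adjusted p = 0.533). Itga7 (-0.53 ± 0.14, limma adjusted p = 0.00866) and Sdc4 (-0.46 ± 0.12, adjusted p = 0.00838) were lower in Tw2 there. Of the 6 markers, none was higher and 2 were lower in Tw2 in growth medium, and 1 was higher and 4 lower at 48. The 1 higher at 48 was Pax7 (0.35 ± 0.12, limma adjusted p = 0.0303). The shares of all genes were 48.7% higher and 26.0% lower, then 43.3% and 22.1%. With other scalings, described below, the growth medium counts ran from 0 higher and 6 lower to 3 and 1. All 6, Pax7 among them, were lower in Tw2 there with size factors and with quantile normalization. Twist2 is not among the genes analysed here.

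Dlk1 was high in growth medium and low in the 48 cultures of both lineages. In Pax7_GM it was at 29.9 CPM in the deeper library (221 reads) and 20.8 CPM in the shallower one (108 reads). In Pax7_48 it was at 2.82 CPM (30 reads) and 1.18 CPM (9 reads). In Tw2_GM it reached 50.03 and 68.1 CPM (609 and 769 reads), the highest values of the gene in the 8 libraries. In Tw2_48 it was at 4.52 and 4.47 CPM (62 and 42 reads). The order of group means was Tw2_GM, Pax7_GM, Tw2_48 and Pax7_48. With 9 reads, the lowest library has an exact 95% Poisson interval of 0.539 to 2.24 CPM, which overlaps that of the other Pax7_48 library (1.90 to 4.02 CPM). These intervals cover counting error only.

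Meg3 showed another order. It was at 18.3 CPM (135 reads) and 32.2 CPM (167 reads) in Pax7_GM and at 86.9 CPM (925 reads) and 71.4 CPM (545 reads) in Pax7_48. In Tw2_GM it was at 3.29 and 2.83 CPM (40 and 32 reads). In Tw2_48 it was at 2.62 and 2.13 CPM (36 and 20 reads). All 4 Pax7 libraries were above all 4 Tw2 libraries, with the Pax7_48 libraries highest. The Tw2_48 libraries lay just below the Tw2_GM libraries, by less than the counting intervals of each (1.30 to 3.63 CPM against 1.94 to 4.47 CPM).

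Rian followed the order of Meg3 at higher read numbers. It was at 39.6 CPM (292 reads) and 57.9 CPM (300 reads) in Pax7_GM and at 190.4 CPM (2026 reads) and 138.1 CPM (1055 reads) in Pax7_48. In Tw2_GM it was at 5.92 and 4.07 CPM (72 and 46 reads). In Tw2_48 it was at 6.12 and 4.58 CPM (84 and 43 reads), so that the Tw2 groups overlapped. CPM is not scaled to transcript length, and the levels of the 3 genes are therefore not compared with each other.

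**Figure D1:**
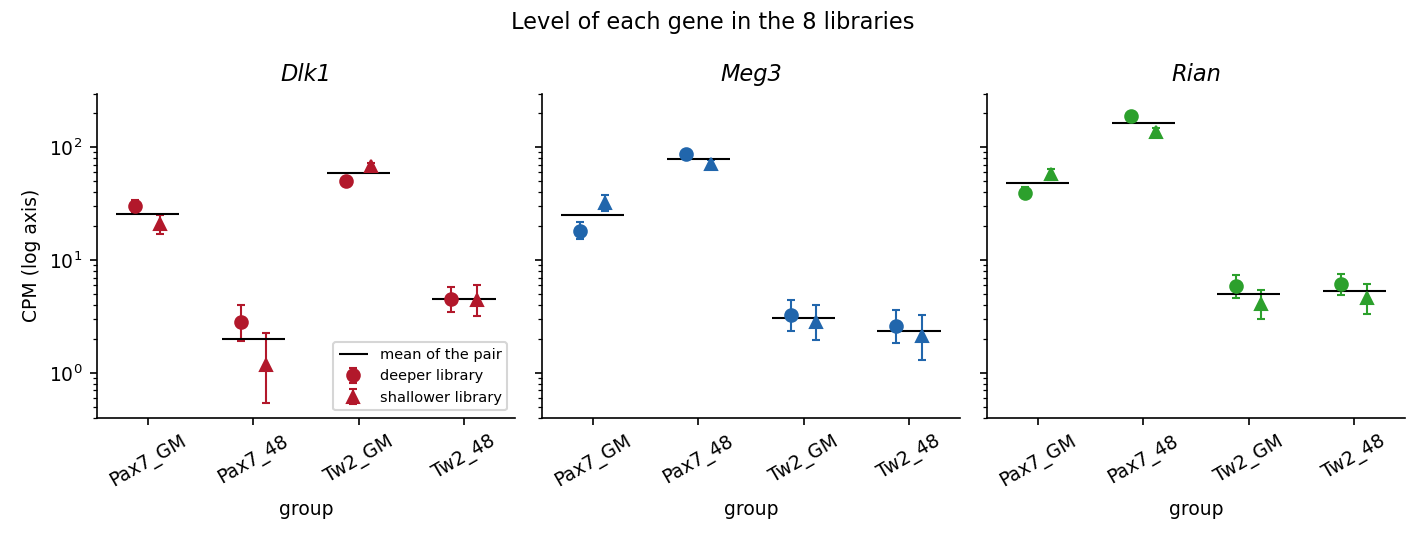
CPM of Dlk1, Meg3 and Rian (log axis) in the deeper (circle) and shallower (triangle) library of each group, with exact 95% Poisson intervals of the reads as bars and the mean of the pair as a line. Dlk1 is highest in Tw2_GM (50.03 and 68.1 CPM), whereas Meg3 and Rian are highest in Pax7_48 (86.9 and 71.4 CPM, 190.4 and 138.1 CPM) and at 2.13 to 6.12 CPM in the 4 Tw2 libraries.

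The first question was how the lineages differ within a culture. In growth medium Meg3 was 8.25-fold lower in Tw2 than in Pax7 cells by the group means, and Rian was 9.76-fold lower, whereas Dlk1 was 2.33-fold higher. On the scale of log2(CPM + 1) the difference, Tw2 minus Pax7, was -2.64 ± 0.25 (SE) for Meg3 (limma, Benjamini-Hochberg adjusted p = 8.38e-05 over the 5452 genes), -3.04 ± 0.25 for Rian (adjusted p = 5.44e-05) and 1.19 ± 0.29 for Dlk1 (adjusted p = 0.00544). The pseudocount of 1 CPM makes these values smaller than the change in CPM where a gene is near 1 CPM. At an adjusted p under 0.05, 48.7% of the tested genes were higher and 26.0% were lower in Tw2, so a call as such was common. The median of all genes was 0.34. Counted from the most negative value, Rian ranked 33 and Meg3 75 among the 5452 genes, and 1532 genes lay at or above Dlk1. Nothing in the labels says whether the libraries of a group came from separate animals or cultures, so the p-values measure only the spread between these libraries. Fewer cells using a gene and less RNA per cell cannot be told apart in bulk RNA.

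In the 48 cultures the noncoding transcripts differed further. Meg3 was 33.3-fold lower in Tw2 by the group means (-4.57 ± 0.25 on the log2 scale, limma adjusted p = 2.91e-05) and Rian was 30.7-fold lower (-4.70 ± 0.25, adjusted p = 2.91e-05). They ranked 3 and 2 from the most negative of the 5452 values. Dlk1 was 2.25-fold higher in Tw2 (0.93 ± 0.29, adjusted p = 0.0211). In this comparison 43.3% of the tested genes were higher and 22.1% lower, with a median of 0.27. In both cultures, 799 genes (14.7%) were lower in Tw2, and 28 genes (0.514%) were lower by at least 4-fold on the log2(CPM + 1) scale in both, Meg3 and Rian among them.

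The size of the Dlk1 difference between lineages depended on the scaling of the libraries. With median-of-ratios size factors, which lower the median of all genes by 0.84 in growth medium and 0.63 in the 48 cultures, Dlk1 differed by 0.34 in growth medium (limma adjusted p = 0.318) and 0.46 in the 48 cultures (adjusted p = 0.203), and quantile normalization gave 0.65 in growth medium (adjusted p = 0.103). In the 48 cultures the call was also lost with a pseudocount of 5 CPM (0.45, adjusted p = 0.0663) and without the shallower Pax7_48 library (0.52, adjusted p = 0.154), the deeper Tw2_48 library (0.92, adjusted p = 0.0886) or the shallower Tw2_48 library (0.94, adjusted p = 0.0782). Dlk1 was higher in Tw2 under each of these settings. Meg3 and Rian were lower in Tw2 under each of the 13 alternatives in each culture, and called in each that has a test, from -1.87 to -3.33 for Meg3 and -2.41 to -4.98 for Rian in growth medium.

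The scaling also changed the share of all genes called in each direction. In growth medium 2655 genes were higher and 1417 lower in Tw2 as deposited, against 1392 and 2940 with size factors. Quantile normalization gave 1973 and 2208, and removing a trend on GC content and length gave 3425 and 811. In the 48 cultures the counts were 2363 and 1205, against 944 and 2634, 1606 and 1715, and 2545 and 721.

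The second question was what changed from growth medium to the 48 cultures. In Pax7 cells the coding and the noncoding genes moved in opposite directions. Dlk1 fell 12.7-fold by the group means (-3.17 ± 0.29, limma adjusted p = 1.48e-05), while Meg3 rose 3.13-fold (1.66 ± 0.25, adjusted p = 0.000312) and Rian rose 3.37-fold (1.74 ± 0.25, adjusted p = 0.000277). Here 38.8% of tested genes rose and 40.5% fell, and the median of all genes was 0.01. In Tw2 cells Dlk1 fell 13.1-fold (-3.43 ± 0.29, adjusted p = 7.12e-06), in a comparison in which 35.3% of genes rose and 48.9% fell, with a median of -0.49. Meg3 and Rian passed no threshold in Tw2 cells. The Meg3 value was -0.27 (95% confidence interval -0.84 to 0.30, adjusted p = 0.334) and the Rian value was 0.09 (-0.50 to 0.68, adjusted p = 0.754). With a trend on GC content and length removed, Meg3 was lower in Tw2_48 (-0.54, adjusted p = 0.0229). The 2 comparisons of culture share no library.

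The third question was whether the change between cultures differed between lineages, which limma tested directly as the difference of changes, Tw2 minus Pax7. It was -1.92 ± 0.35 for Meg3 (adjusted p = 0.0082) and -1.65 ± 0.36 for Rian (adjusted p = 0.017), and fewer genes passed here than in the other comparisons, 9.72% above and 9.01% below 0, around a median of -0.22. For Dlk1 it was -0.26 (95% confidence interval -1.20 to 0.67, adjusted p = 0.646), so the fall of Dlk1 was not shown to differ between lineages and a difference of up to 1.20 log2 units is within the interval. The Rian call was lost without the deeper Pax7_48 library (-1.42, adjusted p = 0.0763), the deeper Tw2_GM library (-1.43, adjusted p = 0.0771) or the shallower Tw2_48 library (-1.47, adjusted p = 0.079). The Meg3 call was kept without each library in turn, from -2.32 to -1.53. The counts of higher and lower calls over all genes were 530 and 491 as deposited, 656 and 223 with size factors, and 612 and 1163 with the GC and length trend removed.

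**Figure D2:**
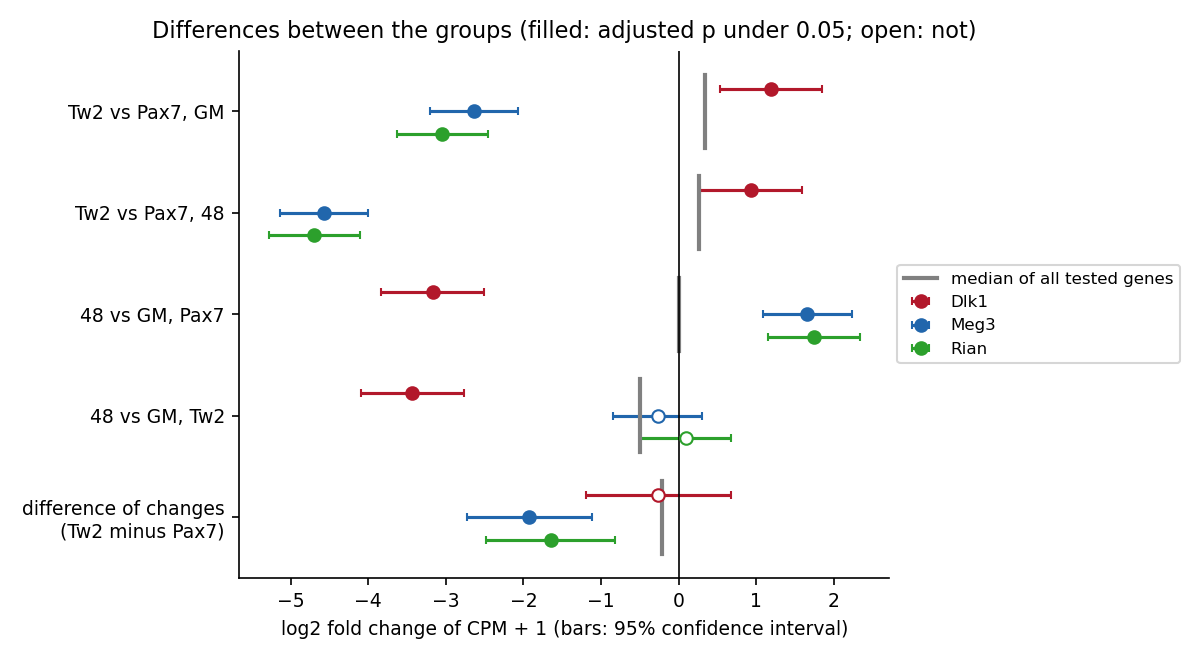
Log2 fold changes of CPM + 1 from limma for the 3 genes in the 5 comparisons, with 95% confidence intervals; grey lines mark the median of all 5452 tested genes. In both lineage comparisons Meg3 and Rian lie at -2.64 to -4.70 while Dlk1 lies at 1.19 and 0.93, and open circles mark values that did not pass an adjusted p of 0.05.

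The combined pattern of Meg3 and Rian was counted over all tested genes as a description. It was defined from the calls of these genes themselves, like that of Dlk1 below, so a low share tests nothing about them. Lower in Tw2 in both cultures, higher at 48 in Pax7 cells and not called between the Tw2 cultures held for 23 of 5452 genes (0.422%), including both. That of Dlk1, higher in Tw2 in both cultures and lower at 48 in both lineages, held for 577 genes (10.6%). A fall at 48 in both lineages held for 2147 genes (39.4%), and a fall of at least 8-fold on the log2(CPM + 1) scale in both held for 258 (4.73%), Dlk1 among them.

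The balance of coding to noncoding transcript was then taken within each library. In shares of reads, library size and scaling cancel. Dlk1 made up 84.5% and 90.8% of the reads of the 3 genes in the deeper and shallower Tw2_GM library (exact 95% binomial intervals 81.6 to 87.0% and 88.6 to 92.7%). In Tw2_48 it made up 34.1% of 182 reads (27.2 to 41.4%) and 42 of 105 reads. In Pax7_GM the share was 34.1% and 18.8%, and the intervals of these libraries, 30.5 to 37.9% and 15.7 to 22.2%, did not overlap. In Pax7_48 it was 1.01% and 0.559%. The Tw2_GM libraries thus stood highest and the Pax7_48 libraries lowest, while Tw2_48 and Pax7_GM shared a range. The shares count reads without regard to transcript length, and they are compared between libraries only.

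**Figure D3:**
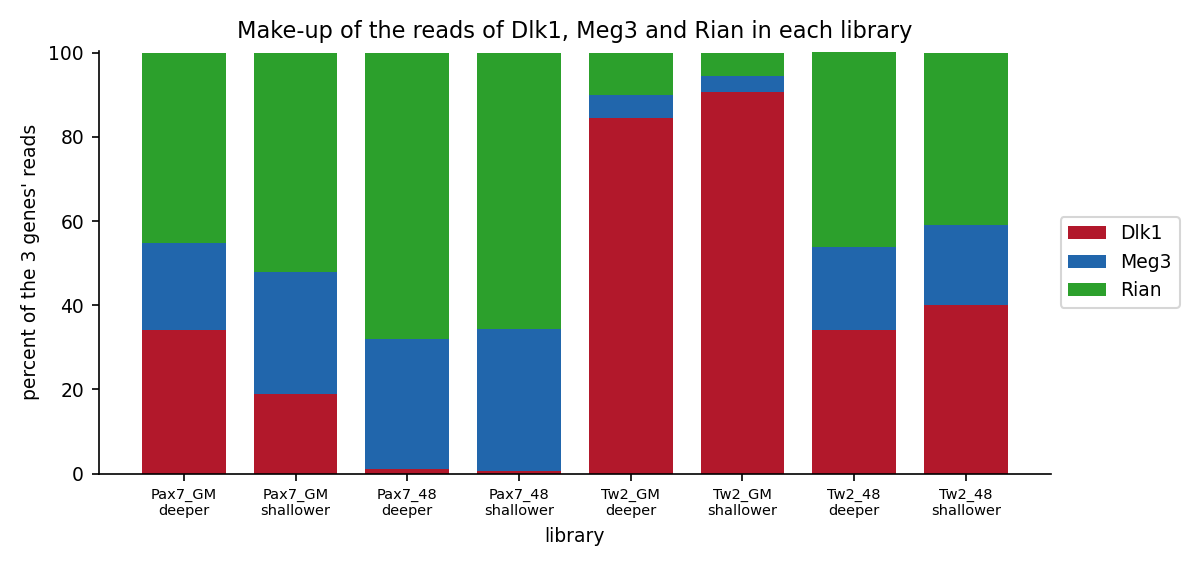
Percent of the reads of Dlk1, Meg3 and Rian that came from each gene, in the deeper and shallower library of each group. The Dlk1 share runs from 84.5 and 90.8% in Tw2_GM to 1.01 and 0.559% in Pax7_48.

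On the log2(CPM + 1) scale, where the pseudocount shrinks differences of genes near 1 CPM and the scaling does not fully cancel, the Dlk1 value minus the Meg3 value was 3.57 and 4.17 in Tw2_GM, 0.61 and 0.81 in Tw2_48, 0.68 and -0.61 in Pax7_GM and -4.53 and -5.05 in Pax7_48. Within each culture, both Tw2 libraries were above both Pax7 libraries. Pooled over cultures, it averaged 2.29 ± 1.85 (SD, n = 4) in Tw2 and -2.38 ± 2.84 (SD, n = 4) in Pax7, a difference of 4.67 (exact two-sided permutation p = 0.0571, 0.0857 adjusted over 3 pairs of genes). The Dlk1 value minus the Rian value averaged 1.56 ± 2.07 (SD, n = 4) in Tw2 and -3.37 ± 2.87 (SD, n = 4) in Pax7, a difference of 4.93 (exact two-sided permutation p = 0.0286, the smallest that the 70 arrangements allow, and 0.0857 adjusted). Neither passed 0.05 after adjustment. When labels were exchanged only within a culture, p for Dlk1 and Rian was 0.0556 by the exact permutation test, which is the smallest that arrangement allows.

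The balance of the noncoding transcripts varied much less. Rian CPM over Meg3 CPM lay between 1.44 and 2.33 in all 8 libraries, at 2.16 and 1.80 in Pax7_GM, 2.19 and 1.94 in Pax7_48, 1.80 and 1.44 in Tw2_GM and 2.33 and 2.15 in Tw2_48. Rian gave 59.0 to 70.0% of the reads of the 2 genes in each library. The Rian value minus the Meg3 value on the log2(CPM + 1) scale was 0.73 ± 0.24 (SD, n = 4) in Tw2 and 0.99 ± 0.13 (SD, n = 4) in Pax7, a difference of -0.27 (exact two-sided permutation p = 0.143, adjusted p = 0.143). This value was -0.19 with a pseudocount of 0.5 CPM (exact permutation p = 0.257), and -0.53 with a pseudocount of 5 CPM and -1.68 with the GC and length trend removed (exact permutation p = 0.0286 in each).

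By the distance of centred log2(CPM + 1) values over the 8 libraries, the gene nearest to Meg3 of the 5451 others was Rian, and the gene nearest to Rian was Meg3 (distance 0.61 against medians of 6.54 and 6.91, Pearson r = 0.996). These r describe 4 pairs of libraries that share culture and lineage. The next gene for both was AW551984, on chromosome 9, at distances of 0.85 and 0.74 (r = 0.992); it was at 16.5 CPM in Pax7_GM, 48.3 in Pax7_48, 0.85 in Tw2_GM and 0.787 in Tw2_48 (group means). It was followed by Arhgef5 for both, then for Meg3 by Dhrs4, Isyna1 and Syt13 at distances of 2.06 to 2.27, and for Rian by Isyna1, Syt13 and Pcbd1 at 2.17 to 2.28. Isyna1 encodes the enzyme that makes inositol phosphate from glucose 6-phosphate, and Syt13 a member of the synaptotagmins. None of these genes lies on chromosome 12.

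The genes nearest to Dlk1 were Podxl, Wipf1, Gpd2, Gpr137b and Tpm4, at distances of 0.89 to 0.98 against a median of 4.67 and r of 0.982 to 0.986, on chromosomes 6, 2, 2, 13 and 8. Podxl encodes podocalyxin, a sialylated surface protein, and Tpm4 a tropomyosin of the actin cytoskeleton. Podxl was at 20.2 CPM in Pax7_GM, 1.31 in Pax7_48, 44.3 in Tw2_GM and 2.84 in Tw2_48 by group means, the same order as Dlk1. From Dlk1, Meg3 ranked 5076 and Rian 5136 of the 5451 genes by this distance, with r of -0.451 and -0.491.

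The listed genes nearest to the domain on chromosome 12 were examined for the lineage difference. Of 7 with a start within 2 Mb of that of Meg3, 5 were higher and 1 lower in Tw2 in both cultures, with medians of 1.13 in growth medium and 0.86 in the 48 cultures. Over all genes 48.7% were higher and 26.0% lower in growth medium, and 43.3% and 22.1% at 48, with medians of 0.34 and 0.27. On the Dlk1 side the 3 nearest were Yy1, Evl and Eml1. Yy1, a zinc finger factor known to bind at imprinted domains, has its start at -748.0 kb from that of Meg3 and differed by 1.03 ± 0.17 in growth medium (limma adjusted p = 0.000848) and 0.84 ± 0.17 at 48 (adjusted p = 0.00404). Eml1, which encodes a microtubule-binding protein, was lower in Tw2 at 48 (-1.21 ± 0.14, adjusted p = 0.000557). Beyond Rian the nearest was Hsp90aa1, the inducible form of the chaperone Hsp90, 1161.7 kb after the Meg3 start, at 3.38 ± 0.42 in growth medium (adjusted p = 0.00021) and 2.32 ± 0.42 at 48 (adjusted p = 0.00242). Rcor1 and Tnfaip2 differed by 0.86 to 1.14, and the translation initiation factor gene Eif5 by 2.52 ± 0.21 in growth medium (adjusted p = 5.1e-05). With size factors the medians of the 7 genes were 0.27 and 0.22, with 2 higher and 2 lower in each culture. From growth medium to 48, none of the 7 rose in Pax7 or Tw2 cells by the limma calls, where 38.8% and 35.3% of all genes rose. In Pax7 cells 2 fell and in Tw2 cells 5, where 40.5% and 48.9% of all genes fell. With size factors 1 rose and 2 fell in Pax7 cells and 2 fell in Tw2 cells, and with the GC and length trend removed 2 rose and 2 fell in Pax7 cells.

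**Figure D4:**
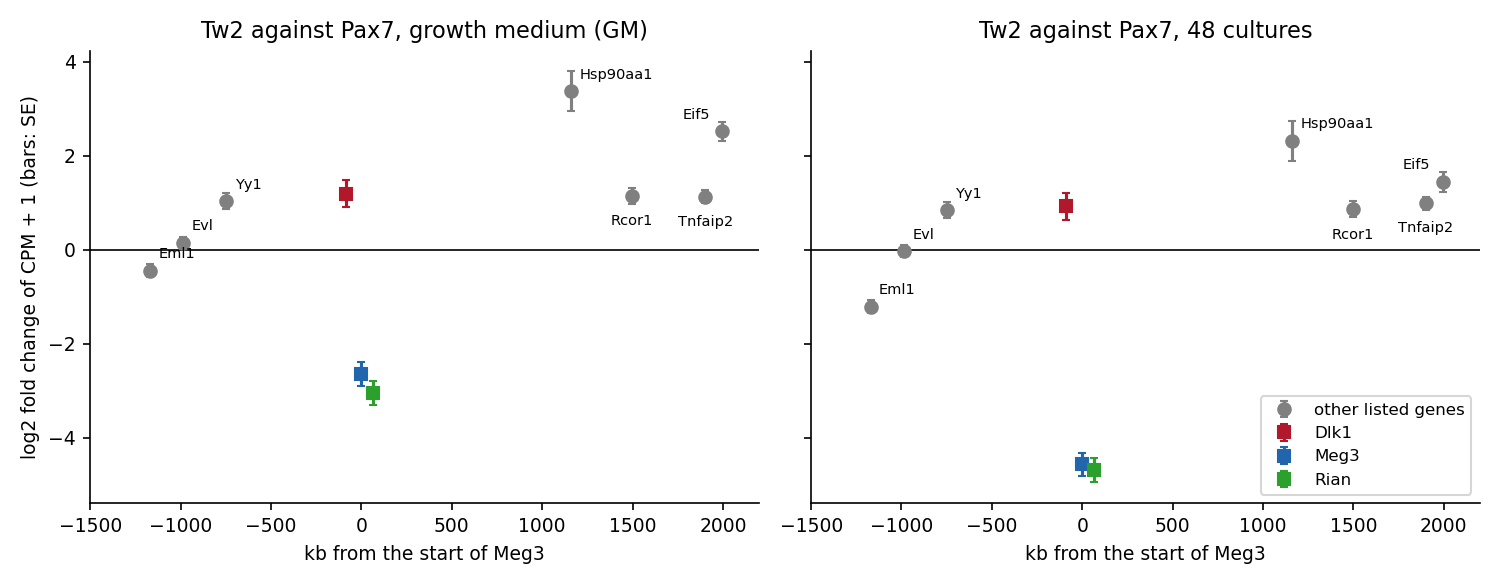
Log2 fold change of Tw2 against Pax7 in growth medium and in the 48 cultures (bars: SE), against the distance in kb from the start of Meg3, for the 3 genes of the domain and the 7 other listed genes within 2 Mb. Meg3 and Rian lie at -2.64 to -4.70, and the other genes between -1.21 and 3.38.

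Other imprinted genes gave a setting for these values. Of 24 paternally expressed genes outside the domain, 13 were in the table. In growth medium 8 were higher and 3 lower in Tw2, with a median of 1.06 beside 0.34 for all genes, and in the 48 cultures 10 were higher and 1 lower, with a median of 0.78 beside 0.27. Over all genes 48.7% were higher and 26.0% lower in growth medium, and 43.3% and 22.1% at 48. Plagl1, a zinc finger factor of an imprinted gene network, differed by 3.10 ± 0.23 in growth medium and 1.98 ± 0.23 at 48, and Peg3, another zinc finger gene, by 2.28 ± 0.24 and 1.89 ± 0.24. Mest, which encodes a hydrolase-like protein and hosts a microRNA, differed by 2.23 ± 0.14 in growth medium. The 1 gene that was lower in both cultures was Ndn, which encodes the MAGE family protein necdin, at -1.99 ± 0.16 and -3.23 ± 0.16 (limma adjusted p = 4.12e-05 and 2.12e-05). Ndn was at 99.2 and 77.2 CPM in Pax7_GM and 72.1 and 71.0 CPM in Pax7_48, against 22.7 and 20.1 CPM in Tw2_GM and, in Tw2_48, 6.33 and 7.13 CPM. With size factors the list split into 6 higher and 6 lower in growth medium and 6 and 3 at 48, with medians of 0.30 and 0.20. Between growth medium and 48, 5 of the 13 rose and 5 fell in Pax7 cells, and 4 rose and 7 fell in Tw2 cells. Of all genes 38.8% rose and 40.5% fell in Pax7 cells, and 35.3% and 48.9% in Tw2 cells. With size factors the list counts were 5 and 5, then 4 and 5. Zdbf2 (3.92 ± 0.22 and 4.62 ± 0.22) and Igf2 (2.58 ± 0.12 and 3.33 ± 0.12) rose in both lineages. Plagl1 (-2.35 ± 0.23 and -3.47 ± 0.23) and Peg12 (-2.86 ± 0.13 and -3.37 ± 0.13) fell in both.

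Of 22 maternally expressed genes outside the domain, 6 were tested. In growth medium 2 were higher and 3 lower in Tw2 (median -0.42), and in the 48 cultures 2 were higher and none lower (median 0.22), against the same shares and medians of all genes. The sign of the median changed in growth medium with the GC and length trend removed (0.36) and in the 48 cultures with size factors (-0.44). Igf2r, the receptor that clears Igf2, differed by -1.20 ± 0.14 in growth medium, and Cdkn1c, the cell cycle inhibitor p57, by -1.14 ± 0.21. Ube3a, a ubiquitin ligase imprinted mainly in neurons, and Zim1 were higher in Tw2, by 2.70 ± 0.35 and 2.59 ± 0.37 in growth medium. From growth medium to 48, 5 of the 6 rose in Pax7 cells and 4 in Tw2 cells, with medians of 1.30 and 1.94, beside 38.8% and 35.3% of all genes and medians of 0.01 and -0.49. Cdkn1c rose by 6.33 ± 0.21 and 7.71 ± 0.21 log2 units, so its rise, unlike the values of Meg3 and Rian, passed in both lineages, and the difference of its changes was 1.37 ± 0.29 (limma adjusted p = 0.0159), opposite in sign to theirs. H19, a maternally expressed noncoding RNA of another domain, was not taken apart; in the authors' deposited table its mean was 7045 CPM in Pax7_GM, 30416 in Pax7_48, 10246 in Tw2_GM and 35032 in Tw2_48.

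**Figure D5:**
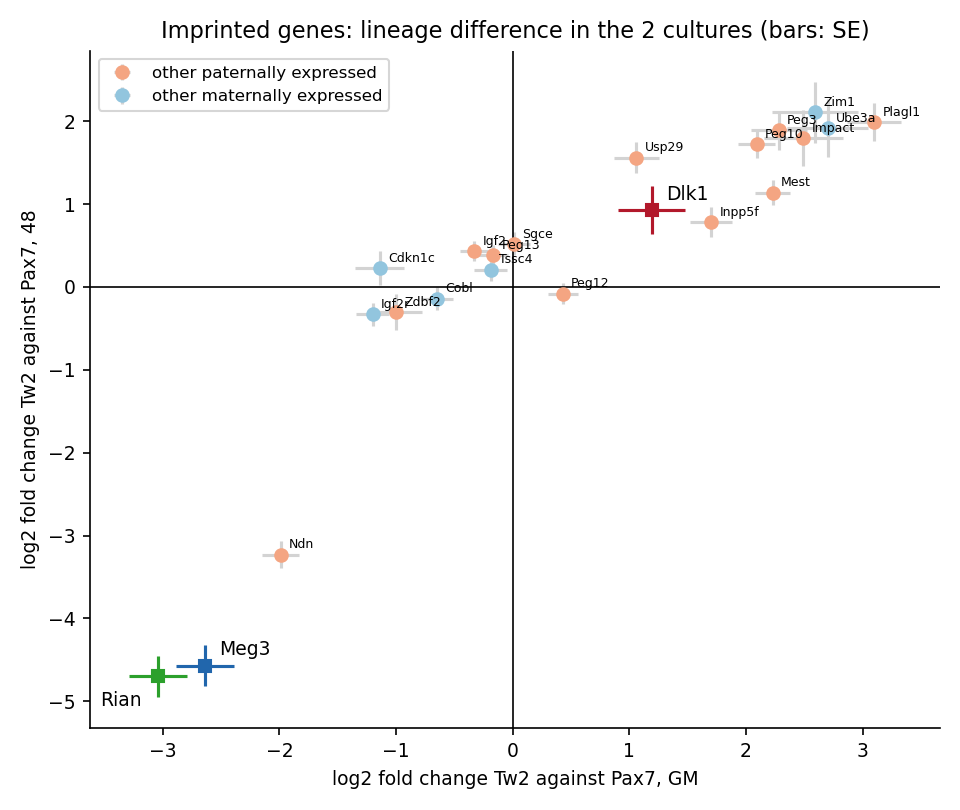
Log2 fold change of Tw2 against Pax7 in growth medium (x axis) and in the 48 cultures (y axis) for Dlk1, Meg3, Rian and the other imprinted genes tested, with SE as bars. Meg3 and Rian lie lowest on both axes, followed by Ndn at -1.99 and -3.23, and Dlk1 lies at 1.19 and 0.93.

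Genes of proteins that set or keep imprints were counted in the same way. Of 29, 19 were tested, and 15 were higher and 1 lower in Tw2 in growth medium (median 1.1), with 13 and 2 in the 48 cultures (median 0.84). Of all genes, 48.7% were higher and 26.0% lower in growth medium (median 0.34), and 43.3% and 22.1% at 48 (median 0.27). With size factors these counts were 7 and 3, then 6 and 4, with medians of 0.23 and 0.20. Zfp57, the zinc finger protein that binds methylated imprinting control regions, was at 19.1 and 22.2 CPM in Pax7_GM, 23.5 and 19.1 CPM in Pax7_48, with 48.1 and 37.6 CPM in Tw2_GM and, in Tw2_48, 60.7 and 44.3 CPM, above all Pax7 libraries in every Tw2 library. Its difference was 1.01 ± 0.20 in growth medium and 1.25 ± 0.20 at 48 (limma adjusted p = 0.00211 and 0.00173). Zfp445, which shares that role, differed by 2.78 ± 0.34 and 1.93 ± 0.34. Of the Polycomb repressive complex 2 genes, Suz12 differed by 2.61 ± 0.27 and 1.84 ± 0.27 and Mtf2 by 3.05 ± 0.18 and 1.68 ± 0.18. Ezh2 differed by 1.1 ± 0.18 and 0.82 ± 0.18, whereas Ezh1 was lower in Tw2 (-0.36 ± 0.14 and -0.43 ± 0.14, limma adjusted p = 0.0411 and 0.0263). Eed differed by 1.66 ± 0.19 in growth medium and passed no threshold at 48 (0.41 ± 0.19, adjusted p = 0.0901). From growth medium to 48, 9 fell and 3 rose in Pax7 cells, where 40.5% of all genes fell and 38.8% rose. In Tw2 cells 13 fell and 2 rose, where 48.9% of all genes fell and 35.3% rose. With size factors 6 fell and 6 rose in Pax7 cells, beside 2015 and 2421 of all 5452 genes. In Tw2 cells 10 fell and 5 rose with size factors, beside 2218 and 2189. Uhrf1 and Dnmt1, which maintain DNA methylation at replication, fell, with values of -4.56 ± 0.19 and -2.41 ± 0.14 in Pax7 cells and -5.16 ± 0.19 and -3.23 ± 0.14 in Tw2 cells. Ezh1 and Tet2 rose, with values of 1.22 ± 0.14 and 1.36 ± 0.25 in Pax7 cells and 1.16 ± 0.14 and 0.7 ± 0.25 in Tw2 cells.

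Since Dlk1 is related to the Notch ligands, the Notch list was read beside it. Of 25 genes 13 were tested, and 8 fell and 3 rose at 48 in each lineage, with medians of -1.08 in Pax7 and -1.17 in Tw2 cells. Of all genes 40.5% fell and 38.8% rose in Pax7 cells, and 48.9% fell and 35.3% rose in Tw2 cells, with medians of 0.01 and -0.49. The 3 that rose in both lineages were Numbl (1.63 ± 0.18 and 2.60 ± 0.18), Hes6 (0.83 ± 0.17 and 1.99 ± 0.17) and Notch1 (0.61 ± 0.14 and 1.25 ± 0.14). Among those that fell with Dlk1, the ligand gene Jag1 changed by -2.91 ± 0.17 and -2.40 ± 0.17, the glycosyltransferase gene Lfng by -3.24 ± 0.18 and -3.31 ± 0.18, and the target gene Hes1 by -2.28 ± 0.18 and -2.87 ± 0.18. Between lineages in growth medium, 5 were higher and 2 lower in Tw2, and in the 48 cultures 6 were higher and 1 lower. The shares of all genes were 48.7% higher and 26.0% lower, then 43.3% and 22.1%. With size factors the Notch counts were 2 and 9, then 1 and 7. With the GC and length trend removed they were 9 and 2, then 9 and 1. The receptor gene Notch3 was lower in Tw2 in both cultures (-1.41 ± 0.17 and -0.81 ± 0.17). Adam10 (2.05 ± 0.26 and 1.62 ± 0.26) and Adam17 (1.70 ± 0.24 and 1.04 ± 0.24) were higher in both. With size factors Adam17 passed no threshold at 48 (0.40, limma adjusted p = 0.141). With the GC and length trend removed, Adam10 differed by less but still passed (0.94 and 0.93, limma adjusted p = 0.000435 and 0.000932).

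Mef2 factors are known regulators of the noncoding genes of the domain in muscle, and they were taken with the genes of myogenic commitment. Of 18, 12 were tested, and 9 rose and 3 fell at 48 in each lineage, where 38.8% of all genes rose and 40.5% fell in Pax7 and 35.3% and 48.9% in Tw2 cells. Mef2c was at 13.5 and 25.5 CPM in Pax7_GM, 164 and 151 CPM in Pax7_48, with 2.14 and 2.48 CPM in Tw2_GM and, in Tw2_48, 83.7 and 81.8 CPM. It was thus lower in Tw2 in both cultures (-2.57 ± 0.25 and -0.92 ± 0.25, limma adjusted p = 9.27e-05 and 0.0126) and rose at 48 in both lineages. Mef2a was higher in Tw2 in both (2.12 ± 0.25 and 1.63 ± 0.25). Of this list, 3 were higher and 6 lower in Tw2 in growth medium, and 5 and 3 at 48, against 2 and 10, then 2 and 7, with size factors and 6 and 4, then 6 and 1, without the GC and length trend. The shares of all genes were 48.7% higher and 26.0% lower, then 43.3% and 22.1%. For the difference of changes between lineages, 5 of the list were called above 0 and 1 below, beside 9.72% and 9.01% of all genes. These counts were 6 and 0 with size factors and 5 and 3 with the GC and length trend removed. Myog (2.65 ± 0.23, limma adjusted p = 0.000325), Ckm (2.23 ± 0.25, adjusted p = 0.000889) and Mef2c (1.65 ± 0.35, adjusted p = 0.0158) were of opposite sign to Meg3 and Rian. Six4 had the same sign as Meg3 and Rian (-0.97 ± 0.24, adjusted p = 0.0286).

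Markers of other cells were set beside the lineage difference. Of 12 fibro-adipogenic markers 4 were in the table. Their sum was 928 and 917 CPM in Pax7_GM beside 999 and 948 CPM in Tw2_GM. At 48 it was 431 and 403 CPM for Pax7 beside 204 and 243 CPM for Tw2. The sums hide members that differed in opposite directions. Col1a2 was at 424 and 387 CPM in Pax7_GM and 3.61 and 3.28 CPM in Tw2_GM. Col3a1 was at 462 and 477 CPM in Pax7_GM and 987 and 940 CPM in Tw2_GM. Col1a2 (-6.51 ± 0.44 and -4.21 ± 0.44) and Prrx1 (-3.01 ± 0.25 and -3.37 ± 0.25) were lower in Tw2 in both cultures, like Meg3 and Rian. Col3a1 was higher (1.04 ± 0.12 and 0.68 ± 0.12). Col1a1 passed no threshold in either (-1.81 ± 0.73 and -0.81 ± 0.73, limma adjusted p = 0.0506 and 0.349). The Tw2_48 libraries differed, at 6.84 and 24.1 CPM for Col1a2 and 2.04 and 20.3 CPM for Col1a1. With size factors none of the 4 was higher in Tw2 in either culture. Of 10 adipocyte markers, Car3 and Scd1 were tested, and their sum was 248 and 308 CPM in Pax7_GM and 46.5 and 36.7 CPM in Tw2_GM, but 578 and 584 CPM in Pax7_48 against 633 and 558 CPM in Tw2_48. The 1 tenocyte marker of 5, Scx, was at 91.4 to 110 CPM in Pax7_GM and 27.5 to 32.1 CPM in Tw2_GM. The 5 pericyte markers of 8 summed to 731 to 887 CPM in the GM libraries, 5310 and 5590 CPM in Pax7_48 and 8520 and 8910 CPM in Tw2_48. Most of this was Acta2, a smooth muscle actin gene that differentiating myoblasts also use, at 5140 and 5420 CPM in Pax7_48. Rgs5 was at 11.4 and 18.9 CPM in Pax7_GM and 56.3 and 62.1 CPM in Tw2_GM. It was at 0 in both Pax7_48 libraries and at 0.51 and 0.213 CPM in Tw2_48. Cspg4 also fell at 48 in both lineages (-1.05 ± 0.19 and -1.70 ± 0.19), whereas Abcc9 rose in both (4.24 ± 0.20 and 5.26 ± 0.20). Tagln rose at 48 in Tw2 cells (1.3 ± 0.17, limma adjusted p = 9.79e-05) and passed no threshold in Pax7 cells (-0.27 ± 0.17, adjusted p = 0.162). Between lineages Tagln was higher in Tw2 at 48 (1.75 ± 0.17, adjusted p = 0.000225). Itgam, the 1 immune marker of 9, was at 0 in both Tw2_GM libraries and at most 22.8 CPM elsewhere. Of the glia list of 6, Ncam1 alone was tested, at 471 to 633 CPM in the GM libraries and 1510 to 2440 CPM at 48, and of 8 endothelial markers none was tested. Their part in the differences of Meg3, Rian and Dlk1 was not tested.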

How the data were processed

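RNA sequencing of 8 libraries was analysed from 1 table. The authors deposited, per the file headers, mean CPM per group and log2 fold changes against Tw2_GM, each recomputed from the means plus 1 CPM to within 1.4e-11. Per the submitters' processing notes, GRCm38 (mm10), DESeq2 1.6.3 and TopHat2 2.0.0 were used, with no role given; the counting tool and annotation are not given in the sources used here. Each mean of 2 libraries was solved for whole reads per library at 2 fixed steps, within 1.1 rounding errors of the 12 deposited digits; 5452 of 5457 genes had 1 solution, and Actc1, Mylpf, H19, Acta1 and Myh3 were left out. The solver and the fit were tested on simulated data. limma 3.58.1 (R 4.3.3) was fitted to log2(CPM + 1) of all 8 libraries with 1 mean per group, eBayes without trend (prior SD 0.16, with 4.0 prior and 4 residual degrees of freedom) and p-values adjusted by Benjamini-Hochberg over 5452 genes, calling at 0.05. Differences between genes within a library were compared by exact permutation (Python 3.11.15, SciPy 1.17.1). GC content and length came from GENCODE M21 for 5431 genes (99.61%), matched by symbol. Named genes are the 3 genes in every comparison, up to 4 called genes with the largest change from each list, the 3 listed genes nearest to Meg3 on each side and any other called within 2 Mb with an absolute log2 fold change over 2, and the 5 nearest in pattern. Genes named beyond this rule, such as Zfp57 and Mef2c in some comparisons, were chosen after their values were seen. The 3 genes and the 14 lists were chosen with earlier results of these data known. Alternatives were other scalings, pseudocounts, a CPM filter, an eBayes trend, removal of a GC and length trend, fewer groups and leaving out each library.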

Additional observations from a re-analysis of the deposited data

Results flagged for a closer look

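The change of Meg3 from growth medium to the 48 cultures differed between the lineages by the test of the difference itself. Tw2 minus Pax7 was -1.92 log2 units (limma adjusted p = 0.0082), with a rise in Pax7 cells (1.66) and a value of -0.27 in Tw2 cells. The same test set the change of Rian apart, at -1.65 log2 units (limma adjusted p = 0.017), from 1.74 in Pax7 cells and 0.09 in Tw2 cells. At 2.13 to 6.12 CPM in the Tw2 libraries, both genes rest on 20 to 84 reads there.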

How the results depend on the processing

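Of 240 alternatives over 18 values of the 3 genes, 15 (from the deposited means) have no test and kept their sign. Of the others, 196 kept their direction and side of the 0.05 threshold, 18 no longer passed, 5 newly passed and 6 changed sign with no call either way: Meg3 and Rian between the Tw2 cultures, and the difference of changes of Dlk1. Of the 18, 8 are the exact permutation p of Dlk1 over Rian, which before adjustment had passed and after it had not. Dlk1 in growth medium fell to 0.34 (adjusted p = 0.318) with size factors and 0.65 (0.103) with quantile normalization; at 48 it was 0.46 with size factors, 0.45 with a pseudocount of 5 CPM and 0.52 to 1.33 without each library in turn. With the GC and length trend removed, Meg3 in Tw2 (-0.54), Dlk1 over Meg3 (5.34) and Rian over Meg3 (-1.68) passed, and genes called for the difference of changes rose from 1021 to 1775. Rian over Meg3 passed with a pseudocount of 5 CPM (-0.53). Dlk1 over Rian was 5.13 with a pseudocount of 0.5 CPM (exact permutation p = 0.0571) and 4.93 with labels exchanged within a culture (exact permutation p = 0.0556). Without each library in turn, the difference of changes was -1.92 to -1.38 for Rian, Dlk1 over Meg3 was 3.77 to 5.68, Dlk1 over Rian 4.05 to 5.92 and Rian over Meg3 -0.35 to -0.16. Genes called at 48 (3568) were 2152 to 2756, and for the difference of changes (1021) 449, without the deeper Tw2_GM or the shallower Tw2_48 library, to 3153, without the shallower Pax7_GM library; a lone library was assumed to vary like the other groups. The cause was not tested. No paired analysis was possible because the libraries recovered from the means carry no replicate numbers. Differences in the Tw2 libraries below about 2-fold are limited by 20 to 84 reads of Meg3 and Rian.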
